A study of Mus musculus with 230 samples.

Results

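The guanylate-binding protein (Gbp) genes of the mouse were followed through 6 brain regions of mice after self-administration of cocaine or of saline. The genes were given as a list of 8 (Gbp2, Gbp2b, Gbp3, Gbp4, Gbp6, Gbp7, Gbp8 and Gbp9), matched by symbol to the 43346 Ensembl gene identifiers of the count table. Of these, 7 were found, and the GENCODE M21 identifier of Gbp6 was not among the identifiers used here. The list was drawn up with the difference between cocaine and saline mice at 24 h already known, so values of that comparison are given as a description, without a test.

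All mice were male C57BL/6J animals from The Jackson Laboratory, and no age is given in the labels. In C24, 8 mice had self-administered cocaine and tissue was taken at 24 h of withdrawal with no injection, and in S24, 8 mice had self-administered saline and were otherwise the same. The other conditions were at 30 d of withdrawal, with tissue taken 1 h after a single intraperitoneal injection in the self-administration setting. CC (7 mice) received cocaine after cocaine self-administration, CS (6 mice) received saline after cocaine self-administration, SC (8 mice) received cocaine after saline self-administration and SS (8 mice) received saline after saline self-administration. The number in a library's title was read as the mouse, because each of the 45 numbers occurred under 1 condition, in 4 to 6 of the regions, and 16 mice had all 6 regions. BLA stands for basolateral amygdala, CPu for dorsal striatum and NAc for nucleus accumbens. PFC stands for prefrontal cortex, vHipp for ventral hippocampus and VTA for ventral tegmental area.

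Guanylate-binding proteins are large GTPases of the dynamin superfamily. They are held at low levels in resting tissue and are induced by interferons, above all by interferon gamma, through the JAK kinases and IRF1. In infected cells they gather on the membranes around intracellular bacteria and parasites, where they work with the immunity-related GTPases and with the autophagy proteins that load them, and they help to open vacuoles and to start caspase-dependent inflammasomes. In the brain, interferon gamma is known to raise them in endothelial cells, microglia and astrocytes.

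In the mouse the genes lie in a pair of clusters. On the forward strand of chromosome 3 (mm10) lie Gbp7 (142530342 to 142550149), Gbp3 (142560026 to 142573209), Gbp2b (142594847 to 142619179) and Gbp2 (142620602 to 142638008). On the reverse strand of chromosome 5 lie Gbp8 (105014150 to 105139540), Gbp9 (105077630 to 105139539) and Gbp4 (105115767 to 105139586), whose annotated intervals in GENCODE M21 overlap each other. RefSeq promoter windows (GRCm38.p6, the assembly of mm10, from 250 bases before to 50 bases after a start) were on hand for the 4 members of chromosome 3. Capitals mark matches to GAAA, NN, GAAA in 1 run (N is any base) or to the reverse complement TTTC, NN, TTTC, the letters of an interferon-stimulated response element. Each sequence is written 5′ to 3′ on the forward strand and ends before the earliest annotated start, except that of Gbp2, whose match lay past the GENCODE start and before the RefSeq start at 142620663 and is shown in 30 bases.
Gbp7, chr3:142530086-142530335: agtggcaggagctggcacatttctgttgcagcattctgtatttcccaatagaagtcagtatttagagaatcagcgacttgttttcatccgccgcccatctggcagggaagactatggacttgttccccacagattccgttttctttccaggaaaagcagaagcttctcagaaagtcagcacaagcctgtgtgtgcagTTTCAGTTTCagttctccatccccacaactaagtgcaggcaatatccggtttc
Gbp3, chr3:142559794-142560015: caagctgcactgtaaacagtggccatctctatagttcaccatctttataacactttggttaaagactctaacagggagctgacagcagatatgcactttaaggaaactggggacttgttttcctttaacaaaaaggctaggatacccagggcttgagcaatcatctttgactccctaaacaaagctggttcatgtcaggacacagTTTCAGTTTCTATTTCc
Gbp2b, chr3:142594597-142594815: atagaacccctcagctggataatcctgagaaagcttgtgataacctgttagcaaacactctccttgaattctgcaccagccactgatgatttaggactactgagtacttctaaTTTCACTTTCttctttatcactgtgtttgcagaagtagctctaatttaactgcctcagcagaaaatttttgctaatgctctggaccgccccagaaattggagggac
Gbp2, chr3:142620594-142620623: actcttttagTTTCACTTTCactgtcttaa

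The first window of each of these 4 genes held the motif, searched on both strands, and Gbp3 held 2 overlapping matches. A second window of Gbp3 held none. Of all 32851 windows of 300 bases, 3.44% held it. TTC, NNN, GAA in 1 run, the letters of an interferon gamma activated site, was found in the window of Gbp7, which held 2 matches, and in 8.30% of all windows. A match is a match of letters and says nothing of a factor's binding.

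Each library held 11866570 to 42135683 counted reads. The members other than Gbp8 had a read in all 230 libraries, with a median of 55.5 (Gbp4) to 130 (Gbp7) reads per library, while Gbp8 had 637 reads in all and none in 59 libraries. Related genes can share reads: of the 50-base stretches in their transcripts, 1.84% of Gbp2b, 2.03% of Gbp2, 3.75% of Gbp3, 7.78% of Gbp4, 8.05% of Gbp9, 12.74% of Gbp7 and 18.12% of Gbp8 also occurred in another gene, so values of Gbp8 are the least separate. For Gbp7, 10.48% occurred in the pseudogene Gm43802 inside it, whose identifier is not in the count table, and 2.24% in Gbp3. The library protocol depletes ribosomal RNA and the strand setting of the counting is not given in the sources used here. The dopamine transporter gene Slc6a3 had a median of 1600 CPM in the VTA against medians of at most 0.934 CPM in the other regions. Single libraries departed from these medians, with up to 158.6 CPM of Slc6a3 in a vHipp library and 61.9 CPM in a NAc library, and up to 556 CPM of Slc17a7, the vesicular glutamate transporter of cortical neurons, in a NAc library, where its median was 7.33 CPM. In 21 libraries (19 SC and 2 CS) the predicted gene Gm20594 exceeded 1 CPM, and in 6 the summed choroid plexus markers exceeded 10 times the median of their region. Results of these conditions are given with and without those libraries where they changed.

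Gbp4 had the widest range of levels among the C24 mice. In mouse cells its protein is known to limit IRF7 in antiviral signalling. Averaged over the regions of a mouse, Gbp4 ran from 1.63 through a median of 4.16 to 27.6 CPM (read counts relative to library size, scaled by TMM) in the 8 C24 mice, and from 0.919 through a median of 1.57 to 6.82 CPM in the 8 S24 mice. C24 mouse-223 had 27.6 CPM, C24 mouse-194 had 23.7 CPM and C24 mouse-203 had 15.98 CPM, and the other C24 mice had at most 4.92 CPM. The highest S24 mouse was mouse-191. These 3 C24 mice stood above every S24 mouse, and the other 5 lay within the range of S24, so the groups overlapped. The means were 10.4 ± 10.4 CPM in C24 mice and 2.33 ± 1.94 CPM in S24 mice (SD, n = 8 each). The log2 difference over the regions was 1.73, and leaving out 1 mouse at a time moved it between 1.43, without C24 mouse-223, and 2.01, without C24 mouse-195.

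**Figure D1:**
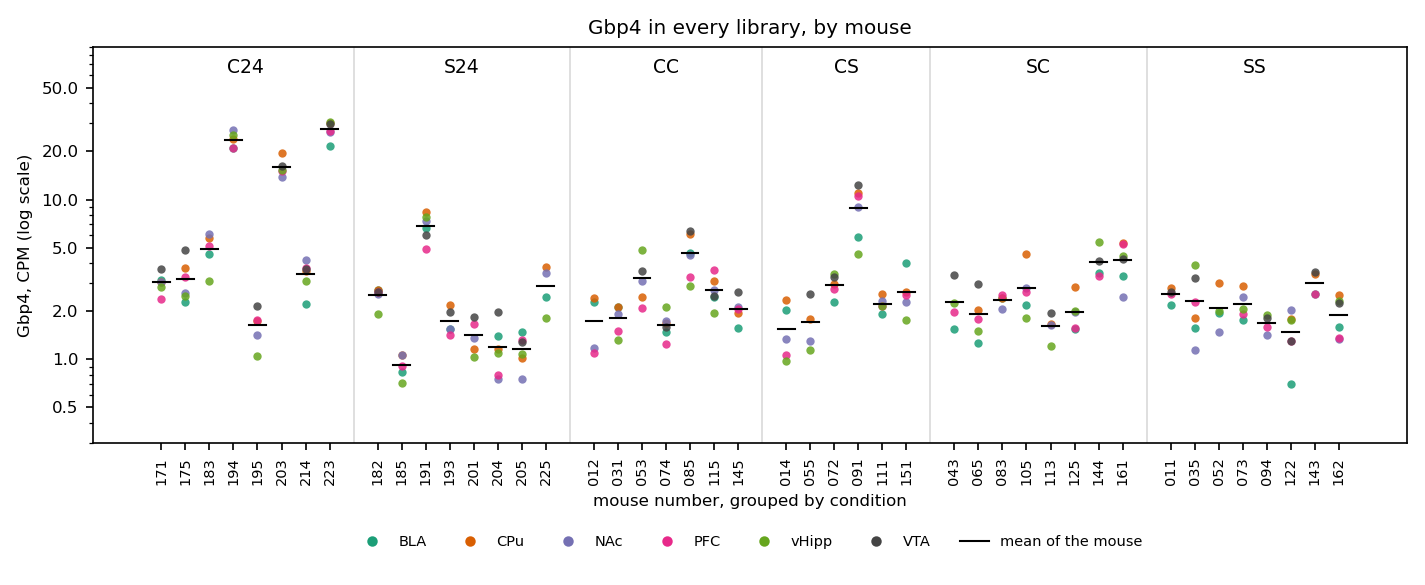
Gbp4 in each of the 230 libraries, in CPM on a log scale, with mice along the horizontal axis grouped by condition, colours for regions and a bar for the mean of each mouse. C24 mouse-194, mouse-203 and mouse-223 lie at 15.98 to 27.6 CPM, and the regions of 1 mouse lie close to each other.

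The elevation of these mice was present in each region sampled from them. In mouse-223, Gbp4 was at 21.6 CPM in the BLA, 30.0 in the CPu, 26.6 in the NAc, 26.9 in the PFC, 30.7 in the vHipp and 29.7 in the VTA. Mouse-194 had 21.1 CPM in the BLA, 23.9 in the CPu, 27.2 in the NAc, 21.0 in the PFC and 25.2 in the vHipp. Mouse-203 had 19.5 CPM in the CPu, 13.8 in the NAc, 15.1 in the PFC, 15.2 in the vHipp and 16.3 in the VTA. The highest S24 library in any region was that of mouse-191 in the CPu, at 8.34 CPM, so all 16 libraries of these 3 mice lay above all S24 libraries. Region by region, the log2 difference in Gbp4 between C24 and S24 in edgeR's fits to counts ran from 1.89 in the BLA to 2.35 in the PFC. The difference over the regions given above is one of mean log2 CPM per mouse, so these values are not on the same scale.

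The other members of chromosome 5 followed. Gbp9 had 9.70 CPM in mouse-194, 7.36 in mouse-223 and 6.57 in mouse-203, and its means were 5.32 ± 2.32 CPM in C24 mice and 3.18 ± 0.996 CPM in S24 mice (SD, n = 8 each). The highest S24 mouse, mouse-191, had 5.05 CPM. Gbp8 was close to the limit of detection throughout, with 0.546 CPM in mouse-223, 0.311 in mouse-203 and 0.246 in mouse-194, a mean of 0.196 ± 0.167 CPM in C24 mice and 0.0602 ± 0.0256 CPM in S24 mice. The log2 differences were 0.68 for Gbp9 and 0.76 for Gbp8. A prior count of 2 enters the log2 values, and Gbp8 had a median of 2 reads per library, so its difference is drawn toward 0.

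On chromosome 3, Gbp2 and Gbp2b had the larger differences. Gbp2 protein coats and restricts parasite vacuoles in mouse cells, and Gbp2b, long called Gbp1 in the mouse, is its neighbour and near relative. Gbp2 ran from 2.34 through a median of 3.65 to 15.3 CPM in C24 mice and from 1.32 through 2.26 to 4.98 CPM in S24 mice. It had 15.3, 14.2 and 9.33 CPM in C24 mouse-194, mouse-223 and mouse-203, with a mean of 6.73 ± 5.44 CPM in C24 mice and 2.58 ± 1.19 CPM in S24 mice. Gbp2b ran from 2.60 through a median of 4.39 to 15.98 CPM in C24 mice and from 2.001 through 2.52 to 6.13 CPM in S24 mice. It had 15.98, 14.3 and 12.4 CPM in C24 mouse-194, mouse-223 and mouse-203, with a mean of 7.502 ± 5.72 CPM in C24 mice and 3.0 ± 1.38 CPM in S24 mice. In both genes the other 5 C24 mice lay within the range of the S24 mice. The log2 differences were 1.09 for Gbp2 and 1.04 for Gbp2b.

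Gbp3 and Gbp7, the upstream members of that cluster, differed less. Gbp7 protein is known in mouse macrophages for helping to assemble the NADPH oxidase. Gbp3 averaged 6.67 ± 4.13 CPM in C24 mice and 3.29 ± 1.502 CPM in S24 mice, a log2 difference of 0.92. Gbp7 averaged 7.64 ± 3.20 CPM in C24 mice and 5.14 ± 0.820 CPM in S24 mice, a log2 difference of 0.48. In C24 mouse-194, mouse-223 and mouse-203, Gbp3 was at 12.6, 11.9 and 10.1 CPM and Gbp7 at 13.2, 10.8 and 9.69 CPM. Of the members, Gbp7 had the smallest log2 difference and Gbp4 the largest. Per kilobase of exon, Gbp4 was at 1.39 ± 1.39 CPM in C24 mice and 0.311 ± 0.259 CPM in S24 mice, below Gbp2 at 2.67 ± 2.16 CPM in C24 mice and 1.02 ± 0.472 CPM in S24 mice.

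For each of the 7 members, the libraries of mouse-194, mouse-203 and mouse-223 above the highest S24 library of the same region numbered at least 4 of 5, 4 of 5 and 5 of 6. For Gbp3 the region below was the vHipp in all 3 mice, where the S24 library of mouse-182 held 12.1 CPM of Gbp3, with 2.82 CPM of Gbp2 and 1.92 CPM of Gbp4.

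How far a gene's level belonged to the mouse was measured as the intraclass correlation, the share of the variance around the group means that is common to the regions of a mouse. Over all 45 mice it was 0.878 for Gbp4, the second highest of the 18927 genes tested, 0.801 for Gbp2b (rank 11), 0.662 for Gbp2 (rank 51) and 0.632 for Gbp3 (rank 65). Gbp9 had 0.508, Gbp7 0.398 and Gbp8 0.259, against a median of 0.026 over all genes. Within C24 and S24 the values ran from 0.496 for Gbp8 to 0.95 for Gbp4, the highest of all genes there. Within the 29 mice at 30 d, Gbp4 had 0.698 and Gbp2b 0.653, Gbp2 had 0.25, and the other 4 had at most 0.117, with a median of 0.017 over all genes. These values are a description, and anything shared by the libraries of a mouse enters them.

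Single mice also stood out at 30 d, each with its own set of members. CS mouse-091 had 8.87 CPM of Gbp4, with 12.3 CPM in its VTA and 4.58 CPM in its vHipp, while the next CS mouse had 2.94 CPM and the highest SS mouse 3.02 CPM. In the same mouse Gbp3 was at 6.46 CPM, Gbp2 at 5.65 and Gbp7 at 7.59, each the highest of CS, and Gbp2b was at 7.12. All 6 of its regions lay above the highest SS library in Gbp4, and 5 of 6 in Gbp2, Gbp2b and Gbp3.

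CC mouse-115 was high in other members. It had 10.2 CPM of Gbp2b, from 7.44 in the vHipp to 13.3 in the CPu, and all 6 regions lay above the highest SS library. Its Gbp2 was at 5.30 CPM, but its Gbp4 was at 2.72 CPM and its Gbp3 at 3.94 CPM, both within the range of SS mice. CS mouse-111 had 7.98 CPM of Gbp2b with 2.22 CPM of Gbp4, and CS mouse-151 had 7.26 CPM of Gbp2b with 2.65 CPM of Gbp4. In these 3 mice Gbp2b was high where Gbp4 was not, whereas the high C24 mice and CS mouse-091 were high in both.

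**Figure D2:**
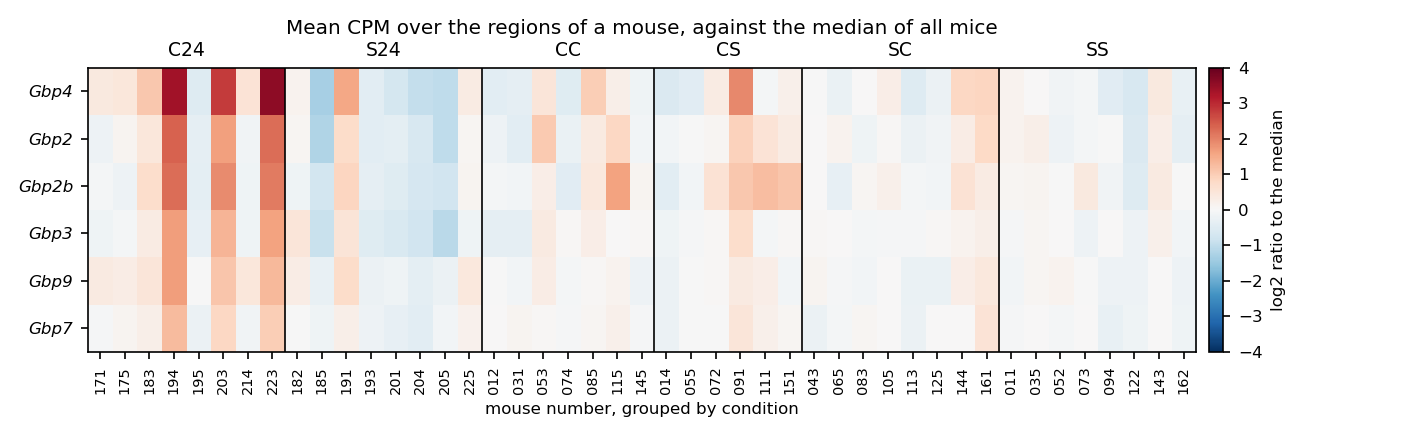
Mean CPM over the regions of each mouse for 6 members, as the log2 ratio to the median of all 45 mice, with mice grouped by condition. C24 mouse-194, mouse-203 and mouse-223 are raised in every row, and CC mouse-115 mainly in Gbp2b (10.2 CPM) and Gbp2 (5.30 CPM).

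Some mice varied between their regions. In the vHipp of CC mouse-053, Gbp2 was at 18.7 CPM, the highest Gbp2 value of all libraries, with Gbp3 at 9.40 CPM and Gbp8 at 1.33 CPM, while Gbp4 was at 4.86 CPM and Gbp7 at 5.53 CPM. The other regions of that mouse had 1.27 to 4.04 CPM of Gbp2. SC mouse-161 had 9.18 CPM of Gbp2 in its PFC, 8.19 in its CPu and 6.62 in its vHipp, and 2.11 to 2.62 CPM in its NAc, VTA and BLA. Its Gbp7 was at 16.3 CPM in the PFC and at 4.22 to 8.11 CPM in the other regions.

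At 30 d, no member was called in any comparison over the regions. Each mouse gave 1 value per gene, the mean over its regions of the log2 CPM centred within the region, and limma was fitted to all 18927 genes with Benjamini-Hochberg adjustment at 0.05. The spread of a gene was estimated once over all 6 conditions, so C24 and S24 mice enter the SEs and p-values at 30 d. For Gbp7, the SD was 3.20 CPM in C24 mice, 0.359 CPM in CC mice and 0.381 CPM in SS mice. No fit without C24 was made, so these tests cannot show how the members compare with the spread at 30 d alone. CS minus SS asks whether cocaine self-administration left a difference at 30 d. There 0 of 7 members were called, with 0% of all genes called and 822 genes (0 members) at an unadjusted p under 0.05. The members' log2 differences were all positive (50.9% of all genes), from 0.11 (SE 0.17) for Gbp9 to 0.52 (SE 0.35) for Gbp2b, and the smallest adjusted p among them was 0.9517 with limma. Gbp2b averaged 5.51 ± 2.30 CPM in the 6 CS mice and 3.54 ± 0.679 CPM in the 8 SS mice, and 4 of the 6 CS mice lay above the highest SS mouse. For Gbp4 the difference was 0.37 (SE 0.47), and 0.04 without CS mouse-091.

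SC minus SS asks for the effect of a first cocaine injection. None of the 7 members was called, with 0.127% of all genes called, and 0 members of 962 genes lay at an unadjusted p under 0.05. Their log2 differences ran from 0.04 (SE 0.32) for Gbp2b to 0.26 (SE 0.43) for Gbp4, with a smallest adjusted p of 0.9985 with limma. Gbp4 averaged 2.65 ± 0.977 CPM in the 8 SC mice and 2.16 ± 0.490 CPM in the 8 SS mice, with SC mouse-144 and mouse-161 above the highest SS mouse at 4.08 and 4.18 CPM. The sign for Gbp2b changed to -0.05 without the libraries with over 1 CPM of Gm20594, which left out 19 of the 37 SC libraries and 0 SS libraries.

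CC minus SS joins both exposures, and CC minus CS compares the injections, cocaine with saline, in mice with earlier cocaine. In CC minus SS, 0 of 7 members were called against 0% of all genes, with 1511 genes and 0 members at an unadjusted p under 0.05, differences of 0.03 (SE 0.24, Gbp3) to 0.31 (SE 0.22, Gbp8) and a smallest adjusted p of 0.7618 with limma. In CC minus CS, 0 of 7 members were called against 0% of all genes, with 423 genes and 0 members at an unadjusted p under 0.05, and the differences ran from -0.32 (SE 0.36, Gbp2b) to 0.18 (SE 0.23, Gbp8), with a smallest adjusted p of 0.9999 with limma. Gbp2b averaged 4.48 ± 2.63 CPM in the 7 CC mice and 5.51 ± 2.30 CPM in the 6 CS mice. The interaction, which is CC minus CS less SC minus SS, called 0 of 7 members against 0.0106% of all genes, with 694 genes and 0 members at an unadjusted p under 0.05. All 7 estimates of the interaction were negative, from -0.45 (SE 0.65) for Gbp4, which was -0.12 without CS mouse-091, to -0.01 (SE 0.31) for Gbp8, with a smallest adjusted p of 0.9998 with limma. These 5 contrasts share mice, SS in 4 of them, so their like signs are not separate observations.

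**Figure D3:**
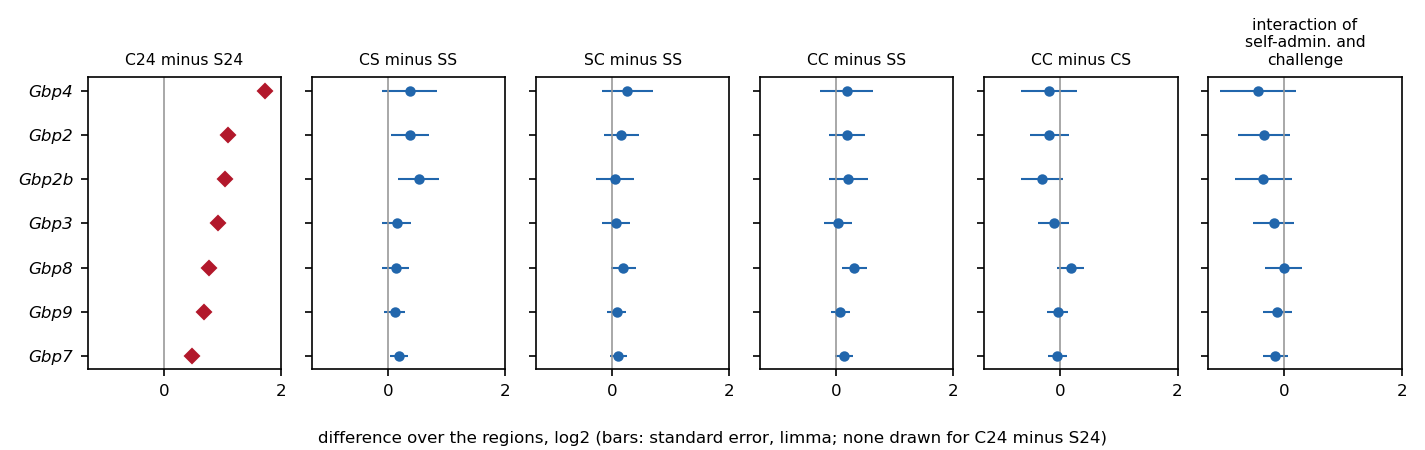
Log2 differences over the regions of the 7 members in the 6 comparisons, with standard errors from limma for those at 30 d. The C24 minus S24 estimates lie between 0.48 and 1.73, and those at 30 d between -0.45 and 0.52.

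Single regions gave no call either. With edgeR's quasi-likelihood test in each region, 6 members passed the filter on low counts (Gbp8 did in no region), and 0 of 180 tests of a member in a region and contrast were called, where all genes were called at 0.0118% for SC minus SS in the NAc, 0.00587% for SC minus SS in the BLA, 0.00585% for SC minus SS in the VTA, 0.00602% for the interaction in the CPu and 0% in the others. DESeq2 and limma voom also called 0, and in each of these fits the spread was estimated once over the conditions, C24 included. Of the 180, 8 had an unadjusted p under 0.05, and the smallest adjusted p was 0.6295, for the interaction of Gbp2 in the vHipp, the region of the high CC library of mouse-053. A test in edgeR of whether the effect differed between regions called 0 of 7 members for CS minus SS (0.148% of all genes, 1518 at an unadjusted p under 0.05), 0 for SC minus SS (0.232%, 1147) and 0 for CC minus SS (0%, 632), with no member at an unadjusted p under 0.05. That fit held no term for the mouse, although the regions came from the same mice. Differences between mice therefore entered its error, and it cannot show that the effects were alike in the regions.

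The level of the members by region was tested on all 230 libraries, with each region's conditions weighted equally. Among all 18927 genes 98.0% differed between some of the regions with edgeR's quasi-likelihood F test, and 5 of 7 members did: Gbp8 (adjusted p = 3.29e-11), Gbp7 (5.11e-06), Gbp3 (0.000178), Gbp2 (0.00242) and Gbp2b (0.0410). Gbp9 (0.0894) and Gbp4 (0.287) did not pass. With the mouse as a block, which removes the difference between mice, all 7 passed, with adjusted p-values of 2.25e-09 for Gbp4 and 0.00104 for Gbp9 in edgeR, where 98.4% of all genes were called. Without the C24 libraries Gbp4 (0.0462) and Gbp9 (0.0167) also passed.

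The CPu had the highest median for 5 members and the second highest for Gbp4. In CPu minus NAc, 5 of 7 members were higher in the CPu against 27.4% of all genes, and 0 were lower (30.7%). Gbp2 had a median of 3.83 CPM in the CPu (lowest 1.90, highest 17.6) and of 2.29 CPM in the NAc (lowest 0.752, highest 16.01), a log2 difference of 0.57 (SE 0.18, edgeR adjusted p = 0.00342). For Gbp3 the medians were 4.92 (CPu) and 3.24 CPM (NAc), a log2 difference of 0.54 (SE 0.14, edgeR adjusted p = 0.000328). For Gbp7 they were 6.80 (CPu) and 5.39 CPM (NAc), a log2 difference of 0.34 (SE 0.097, edgeR adjusted p = 0.00139). Gbp2b and Gbp9 differed by 0.39 and 0.27 in the same direction. For Gbp4 the difference was 0.33 (SE 0.23, edgeR adjusted p = 0.223), and 0.28 with the mouse as a block (adjusted p = 0.000614, where 28.3% of all genes were higher).

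The other pairs of regions are read in the same way, with the share of all genes higher and lower beside the members. In CPu minus PFC, Gbp2, Gbp2b, Gbp3 and Gbp7 were higher in the CPu (38.8% of all genes) and Gbp8 lower (37.2%). In CPu minus vHipp, Gbp2b, Gbp3 and Gbp7 were higher (38.0%) and Gbp8 lower (41.0%). In CPu minus VTA, 0 members were higher (41.7%) and Gbp8 was lower (42.2%). The BLA was lower than the CPu in Gbp2, Gbp3, Gbp7 and Gbp9 (37.6% of all genes) and higher in 0 members (38.6%), and lower than the VTA in Gbp2, Gbp3, Gbp7 and Gbp8 (37.8%) and higher in 0 (41.9%). In BLA minus PFC, Gbp8 was lower (32.1%) and 0 members higher (32.0%), and in BLA minus NAc 0 members were higher (31.9%) and 0 lower (32.9%). In NAc minus vHipp, Gbp2 and Gbp8 were lower (38.4%) and 0 higher (37.4%), in NAc minus VTA, Gbp3 and Gbp8 were lower (40.6%) and 0 higher (41.9%), and in NAc minus PFC, Gbp8 was lower (35.3%) and 0 higher (38.2%). In PFC minus vHipp, Gbp7 was higher (30.4%) and Gbp8 lower (33.0%), in PFC minus VTA, Gbp3 was lower (38.6%) and 0 higher (41.0%), and in vHipp minus VTA, Gbp8 was higher (42.3%) and Gbp7 lower (37.3%). Over the 15 pairs and 7 members together, 36 differences were called, with 73.3% over all genes. With the mouse as a block 59 were called, with 74.2% over all genes: 35 in both fits and none of them with the opposite sign, 24 gained, of which 8 were in Gbp4, and 1 of Gbp8 lost.

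The CPu and the VTA had the highest medians of Gbp2, Gbp2b, Gbp3 and Gbp7, and the rest of the order differed between these members. In the fit without the mouse as a block, Gbp3 ran from the CPu (4.92 CPM) and the VTA (4.76), for which no difference was called, to the BLA (3.44), the PFC (3.39), the vHipp (3.25) and the NAc (3.24), of which no neighbours in that order were called. The step of Gbp3 from the VTA to the BLA was called in that fit. Gbp2 ran from the CPu (3.83) through the VTA (3.26), the vHipp (3.11), the PFC (2.98) and the NAc (2.29) to the BLA (2.13), with no neighbours called. Gbp7 ran from the CPu (6.80) and the VTA (6.05) through the NAc (5.39), the BLA (5.33) and the PFC (5.01) to the vHipp (4.58), and of its neighbours the PFC and the vHipp were called. Gbp2b was highest in the CPu (4.32) and the VTA (3.77), and between 2.95 and 3.34 elsewhere. The medians of Gbp4 lay between 2.07 in the vHipp and 2.98 in the VTA, and those of Gbp9 between 2.88 in the NAc and 3.42 in the CPu. For Gbp2b, Gbp4 and Gbp9, too, no neighbours in the order were called in that fit. With the mouse as a block in edgeR, neighbours not called without it were the VTA and the BLA for Gbp2b (BLA minus VTA -0.34, adjusted p = 9.56e-05), the CPu and the PFC for Gbp4 (CPu minus PFC 0.30, adjusted p = 9.74e-05) and the NAc and the VTA for Gbp7 (NAc minus VTA -0.23, adjusted p = 0.00552). The VTA and the BLA stayed called for Gbp3 (BLA minus VTA -0.41, adjusted p = 2.14e-05 in edgeR). No neighbours were called for Gbp2 and Gbp9 with the block either.

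Gbp8 had another order. Its median was 0.185 CPM in the vHipp, 0.121 in the VTA and 0.102 in the PFC, and about 0.041 in the BLA, the CPu and the NAc. Of its neighbours, the vHipp and the VTA were called, and the PFC and the BLA. In BLA minus vHipp, Gbp8 and Gbp2 were lower in the BLA (32.8% of all genes) and 0 members higher (31.2%), and the log2 difference of Gbp8 was -2.07 (SE 0.33, edgeR adjusted p = 6.39e-09). These levels correspond to a few reads per library, and 18.12% of its 50-base stretches also occur elsewhere.

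**Figure D4:**
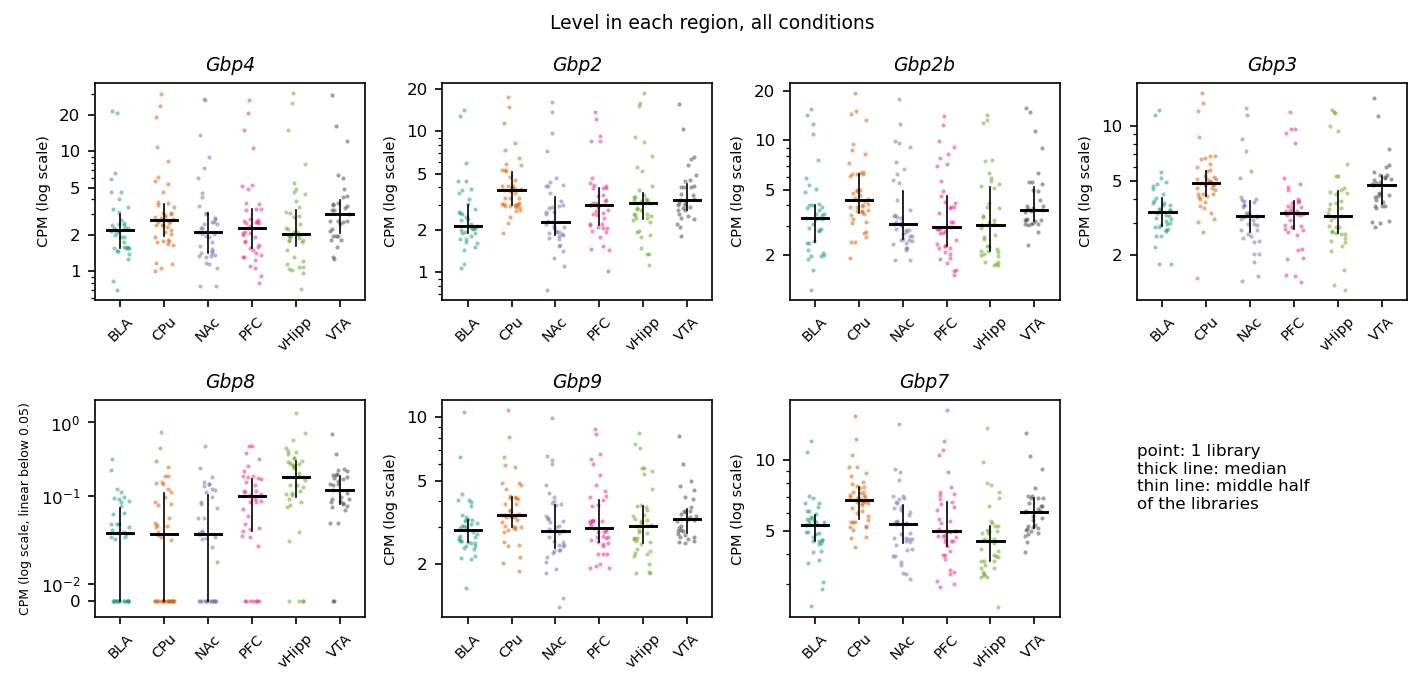
CPM of each member in every library by region on log scales (linear near 0 for Gbp8), with the median as a thick line and the interquartile range as a thin line. Gbp2, Gbp3 and Gbp7 have their highest median in the CPu (3.83, 4.92 and 6.80 CPM) and Gbp8 in the vHipp (0.185 CPM).

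Other loci of the family were measured with them. Gbp11, annotated as a polymorphic pseudogene on chromosome 5 (105323042 to 105346472), averaged 0.319 ± 0.0815 CPM in C24 mice and 0.332 ± 0.0584 CPM in S24 mice, a log2 difference of 0.01. Gm43302 (chromosome 5, 105214907 to 105293695) overlaps Gbp6 and Gbp10 in GENCODE M21, and 92.96% of its 50-base stretches occur in Gbp6. It averaged 2.27 ± 1.21 CPM in C24 mice and 1.33 ± 0.521 CPM in S24 mice, with 4.91 CPM in C24 mouse-223. Its median was 3.79 CPM in the VTA and between 0.771 and 1.23 CPM in the other regions.

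Likeness across mice differed between the members. Over the 29 mice at 30 d, taken as deviations from the condition mean, the mean of the members correlated with Gbp4 at r = 0.932, with Gbp2 at 0.888 and with Gbp7 at 0.848, and least with Gbp8 at 0.502. Among pairs, Gbp2 and Gbp2b had r = 0.816, Gbp3 and Gbp4 had 0.802, Gbp3 and Gbp7 had 0.467, Gbp2b and Gbp3 had 0.429, and Gbp8 had 0.215 with Gbp2 and 0.028 with Gbp2b. Over the 16 mice of C24 and S24 the pairs without Gbp8 ran from 0.905 to 0.98. Each member is part of the mean it was set against, and without mouse-091 and mouse-161 the correlation of Gbp8 was 0.151, that of the pair Gbp3 and Gbp7 was 0.266 and that of the pair Gbp2 and Gbp8 was -0.161.

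Outside the family, the 10 genes most like the mean of the members over these 29 mice were Ifi47 (r = 0.885), Igtp (0.87), Irgm2 (0.855), H2-D1 (0.811), Tap1 (0.81), Iigp1 (0.799), Zbp1 (0.791), H2-Q4 (0.787), H2-K1 (0.756) and Ifit1 (0.745). Ifi47, Igtp, Irgm2 and Iigp1 encode immunity-related GTPases, H2-D1, H2-K1 and H2-Q4 class I heavy chains, Tap1 a subunit of the peptide transporter, Zbp1 a nucleic acid sensor and Ifit1 a binder of foreign RNA. Over the 16 mice at 24 h the same genes had r from 0.755 (H2-D1) to 0.989 (Iigp1), where mouse-194, mouse-203 and mouse-223 lay apart from the other mice. Without CS mouse-091 and SC mouse-161, which lay farthest from the median, the 10 values at 30 d ran from 0.678 to 0.873. The points of these correlations share a library and its scaling.

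The interferon pathway was read from a list grouped by role. The ligands were close to absent: Ifng had 61 reads in all 230 libraries together, Ifnb1 7, Ifnk 15, Ifne 19 and Ifna4 0, and none passed the filter. The receptor genes were present at steady levels, with Ifngr1 at 17.1 CPM in C24 mice and 17.0 CPM in S24 mice, Ifngr2 at 34.9 and 35.3, Ifnar1 at 49.9 and 47.7 and Ifnar2 at 11.4 CPM in C24 mice and 10.8 CPM in S24 mice. The 4 receptors had a median log2 difference of 0.04 in C24 minus S24, where all genes had a median of -0.01 and 46.3% were positive.

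The targets differed in the same direction as the members. In C24 minus S24, all 18 interferon gamma targets were positive, with a median log2 difference of 0.61, and the largest were Tgtp2 (1.47), Iigp1 (1.20) and Tgtp1 (1.12), T cell specific and immunity-related GTPases. The 9 type I interferon targets were all positive with a median of 0.30, the 10 kinases and transcription factors had a median of 0.08 with 7 positive, the 4 inhibitors 0.10 with 3 positive and the 8 partners of Gbp loading and effector function 0.05 with 4 positive. At 30 d no gene of these lists was called in any of the 5 contrasts over the regions. The interferon gamma targets had a median of 0.25 in CS minus SS (17 of 18 positive, 50.9% of all genes) and 0.22 in SC minus SS (17 of 18, 53.6%). Their median was 0.12 in CC minus SS (16 of 18, 48.3%), -0.06 in CC minus CS (3 of 18, 47.5%) and -0.35 in the interaction (1 of 18, 45.7%). The type I interferon targets had -0.02 in CS minus SS (4 of 9 positive), 0.08 in SC minus SS (8 of 9) and 0.07 in CC minus SS (6 of 9). In CC minus CS they had 0.01 (6 of 9) and in the interaction -0.04 (2 of 9). Medians of all genes lay within 0.01 of 0. These contrasts share mice, and targets such as Ifi47 and Igtp varied with the members across mice, so the like signs are not separate observations.

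**Figure D5:**
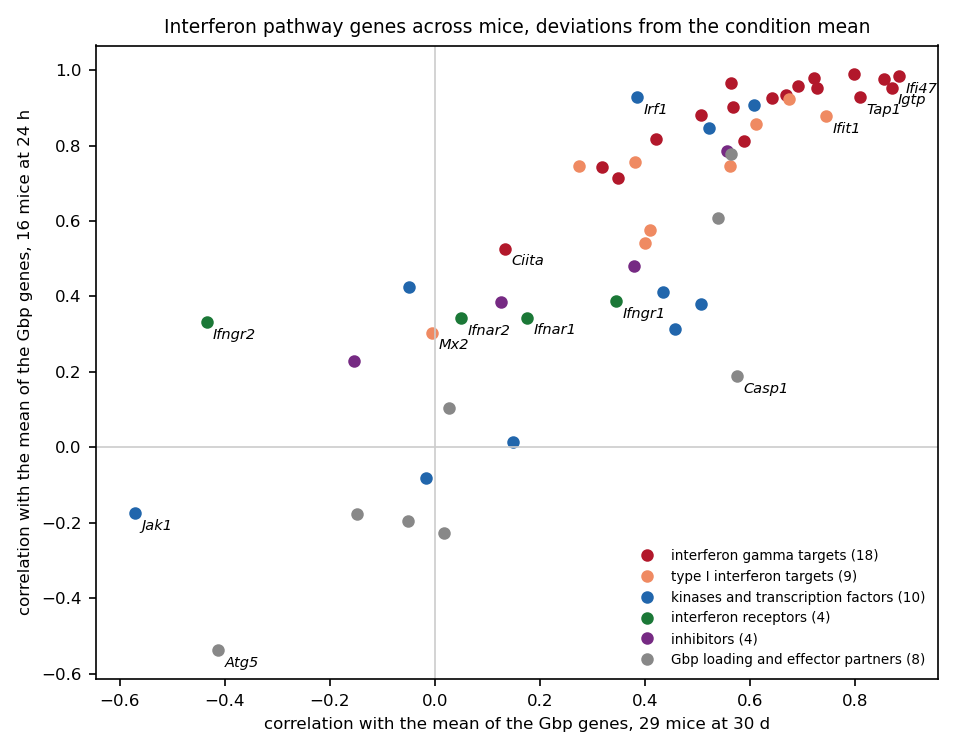
Correlation of 53 interferon pathway genes with the mean of the Gbp genes, over the 29 mice at 30 d on the horizontal axis and the 16 mice at 24 h on the vertical axis, coloured by role. Interferon gamma targets such as Ifi47 (0.885 and 0.984) lie at the upper right and the receptor Ifngr2 (-0.435 and 0.332) at the left.

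Likeness to the members differed between genes of the list. Of the 18 interferon gamma targets, Ifi47 was the highest at 30 d (0.885) and Iigp1 at 24 h (0.989, with Ifi47 at 0.984), and Ciita, the switch of class II genes, the lowest (0.134 at 30 d and 0.527 at 24 h). The receptor Ifngr1 had 0.345 and 0.388, Ifngr2 -0.435 and 0.332, and the kinase Jak1 -0.572 and -0.175. Irf1, which mediates much of the induction of Gbp genes, had 0.385 at 30 d, where it was 0.088 without mouse-091 and mouse-161, and 0.928 at 24 h.

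Markers of cell types were set beside these values, and in bulk tissue more cells of a type and more RNA per cell cannot be told apart. In C24 minus S24, all 8 endothelial markers were positive with a median log2 difference of 0.20, all 8 microglial markers with 0.12, all 4 pericyte markers with 0.15, all 5 oligodendrocyte markers with 0.12 and all 7 blood markers with 0.40. Of the astrocyte markers 3 of 6 were positive (median 0.02), of the leptomeningeal fibroblast markers 4 of 5 (0.09), and of the choroid plexus and neuron markers 0 of 5 each (-0.17 and -0.06). The summed endothelial markers were at 235 to 421 CPM in C24 mice and 234 to 283 CPM in S24 mice, with 421 CPM in mouse-203, 345 CPM in mouse-223 and 280 CPM in mouse-194, so mouse-194 lay within the range of S24. The summed microglial markers were at 315 to 391 CPM in C24 mice and 274 to 375 CPM in S24 mice. The summed blood markers were at 74.6 CPM in mouse-194, 203.9 in mouse-223 and 256 in mouse-203, with 71.95 to 315 CPM in S24 mice. The 7 markers of T and NK cells did not pass the filter and summed to 0.177 to 0.967 CPM in C24 mice and 0.0928 to 0.245 CPM in S24 mice, with 0.967 CPM in mouse-203, 0.431 CPM in mouse-223 and 0.296 CPM in mouse-194. At 30 d, where no member was called, the 7 blood markers were all positive in CS minus SS (median log2 difference 0.39) and in CC minus SS (0.75), and the endothelial markers had medians of 0.00 and 0.05. Of all genes, 50.9% were positive in CS minus SS and 48.3% in CC minus SS. The microglial markers had medians of -0.09 in CS minus SS (0 of 8 positive) and -0.07 in CC minus SS (1 of 8), and all 5 choroid plexus markers were positive in both contrasts, with medians of 0.34 and 0.29. The choroid plexus markers lay apart in single mice, summing to 5052 CPM in CS mouse-055, 1952 in CC mouse-053 and 3016 in S24 mouse-182. The medians of the mice were 35.1 CPM in CS, 32.6 in CC, 29.2 in SS, 37.7 in S24 and 29.3 in C24. The part of these cell types in the level of the Gbp genes was not tested.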

How the data were processed

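RNA of 6 brain regions was sequenced in 230 libraries. The authors deposited raw read counts per Ensembl gene, and the submitters' processing notes name HTSeq, limma and mm10. The aligner, the annotation release and the strand setting are not given in the sources used here. Per the labels' protocols, ribosomal RNA was depleted and ScriptSeq Complete Gold libraries were made, while the molecule field says polyA RNA. GENCODE M21 symbols were attached to 42462 of 43346 identifiers (98.0%).

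The members and gene lists were chosen with earlier results of these data known. Genes passing edgeR's filter (minimum count 10, minimum total 15) numbered 18927. For the contrasts over the regions, log2 CPM (TMM, prior count 2) were centred in each region, averaged per mouse and fitted with limma 3.58.1. Regions and single-region contrasts were tested on counts with edgeR 4.0.16 (quasi-likelihood), with DESeq2 1.42.0 as an alternative, in R 4.3.3, at a Benjamini-Hochberg adjusted p of 0.05. The scripts were tested on simulated counts, drawn separately for each library at 1 dispersion. No difference between mice was simulated, so that test does not cover the spread between mice seen here. All members were named, with the 10 genes most like their mean over the mice at 30 d. The labels do not state that libraries with 1 number come from 1 animal: 486 pairs of libraries with the same number had a median correlation of deviations of 0.067 (182 over 0.1), and 3228 pairs of other numbers in the same condition had -0.01 (397 over 0.1). The p-values of the limma contrasts on 1 value per mouse and of the single-region fits measure the spread between these numbered samples. The edgeR fits to all libraries without a block took the libraries of 1 number as separate. Those with the mouse as a block measure the spread between regions within a number.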

Additional observations from a re-analysis of the deposited data

Results flagged for a closer look

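In 9 of the 42 groups of mice examined (7 members in 6 conditions), the highest mouse lay farther from the others than Dixon's 95% critical value. Chance alone gives about 1 group in 20 where groups are separate and values normally distributed. Here the 7 members were read in the same mice and varied together, so the groups are not separate. The 9 groups are given as a list, with no measure of chance. Values are means of CPM over the regions of a mouse. CS mouse-091 had 8.87 CPM of Gbp4, with the next CS mouse at 2.94, and 6.46 CPM of Gbp3, with the next at 4.09. S24 mouse-191 had 6.82 CPM of Gbp4, with the next at 2.89, and 6.13 CPM of Gbp2b, with the next at 3.65. CC mouse-115 had 10.2 CPM of Gbp2b, with the next at 4.59. SC mouse-161 had 5.19 CPM of Gbp2, with the next at 3.71, 7.997 CPM of Gbp7, with the next at 5.82, and 0.293 CPM of Gbp8, with the next at 0.146. CC mouse-053 had 0.304 CPM of Gbp8, with the next at 0.156.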

How the results depend on the processing

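The number of members called at 30 d over the regions stayed at 0 with limma voom, size factors of DESeq2, no filter on low counts, a prior count of 0.5, each mouse left out, and libraries with Gm20594 or choroid plexus markers left out, the last 2 chosen after seeing the data. In single regions it stayed at 0 with DESeq2, voom, DESeq2 size factors and no filter. None of these fits left out the C24 group, which enters the estimate of the spread. With the mouse as a replicate block (voom), 0 members were called in the 5 contrasts, with smallest adjusted p-values in limma of 0.5844, 0.9997, 0.6961, 0.9999 and 0.9998, and the median C24 minus S24 difference of the members was 1.04, with 0.92 as reported. Beyond the region tests given above, the block changed no call. Between regions, 7 members were called with the block and without the C24 libraries and 4 with no filter on low counts, where Gbp2b was lost (edgeR adjusted p = 0.0807). Signs changed for estimates near 0 that were not called: the interaction of Gbp8 was 0.007 with a prior count of 0.5, Gbp2b in SC minus SS was -0.046 without the Gm20594 libraries, and Gbp3 in CC minus SS was -0.019 without the choroid plexus libraries. Leaving out 1 mouse moved Gbp8 between -0.006 and 0.202 in CS minus SS, Gbp2b between -0.036 and 0.104 in SC minus SS and between -0.021 and 0.318 in CC minus SS, and Gbp3 between -0.017 and 0.086 in CC minus SS. In CC minus CS it moved Gbp3 between -0.165 and 0.004, Gbp4 between -0.344 and 0.137, Gbp7 between -0.112 and 0.025 and Gbp9 between -0.104 and 0.019, and in the interaction Gbp8 between -0.088 and 0.122. Other values of changed sign were -0.015 for Gbp3 in CC minus SS, -0.033 for Gbp2b in SC minus SS and 0.002, 0.005, 0.007, 0.014, 0.026, 0.029, 0.037, 0.046 and 0.111 for the interaction of Gbp8. The cause was not tested. Gbp8, with a median of 2 reads per library, is limited by depth.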
